A study of Danio rerio with 6 samples.

Results

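Crystallin transcripts were examined on 6 Affymetrix zebrafish arrays of whole embryos, through every probe set whose single platform gene symbol began with crya, cryb, crygm or crygn. The rule found 11 genes, each with 1 probe set, among 8793 genes named by the platform. RefSeq lists 57 crystallin symbols by the same prefixes, so most crystallin genes had no probe set of their own and were not measured. Of 6 genes asked for first, crybb1, cryba4 and cryaa had such a probe set. The other 3, cryba1b, cryba2a and crybb1l1, had no probe set of their own in the annotation used here and were not analysed here.

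The control group was 3 samples of Tu strain embryos kept in the solvent DMSO, and the treated group was 3 samples of Tu strain embryos kept in leflunomide at 6.5 uM. Both exposures ran from 50% epiboly, a stage of gastrulation, to 24 hours after fertilization. Leflunomide is used against rheumatoid arthritis, and its active metabolite blocks the pyrimidine-synthesis enzyme dihydroorotate dehydrogenase; the study asked which transcripts differ after it. The labels do not say whether samples of a group came from separate clutches or how many embryos each held, so the p-values reflect the variation among these samples and possibly no more than technical variation.

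Crystallins are the abundant soluble proteins that give the lens its transparency and refractive power. The alpha crystallins belong to the small heat shock proteins and act as chaperones, while the beta and gamma crystallins share a fold of Greek key motifs. Fish lenses also hold M-type gamma crystallins, which are rich in methionine and are encoded by a large family of near-identical genes. Lens fibre cells switch these genes on as they elongate, and in zebrafish the lens fibres are forming during the first day of development.

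After leflunomide, the beta crystallins crybb1 and cryba4 fell 4.51-fold and 3.41-fold, and the M-type gamma-like gene crygmxl2 fell 1.51-fold. Of the 7 tested members, 0 were called higher, where 9.95% of all tested probe sets were higher. The other 4 tested members, cryaa, crygm4, crybg1a and crybg1b, did not pass the test. In limma, 3 of the 7 tested members were lower at an adjusted p under 0.05, where 11.1% of all 12669 tested probe sets were lower and 21.0% differed in either direction. The members were chosen with earlier results of these data known, so these shares give no independent comparison. The call of crygmxl2 was lost whenever any 1 array was left out, which left 2 lower members. The median log2 change was -0.60 over the 5 tested lens crystallins and 0.12 with crybg1a and crybg1b, which are not lens crystallins, against 0.04 over all tested probe sets.

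The values are log2 values centred on the median of each probe set, so they show differences between arrays and no absolute level. A coarse level read from the rounding of the values placed crybb1, cryba4, cryaa, crygmxl2, crygm4 and crybg1a at a median log2 level of 4 to 8 and crybg1b at 8 to 16. The other 4 members, cryaba, crygm6, crygm2c and crygm2f, lay at 2 to 4, below the level of 4 needed for testing. The filter used the median over all 6 arrays of both groups.

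**Figure D1:**
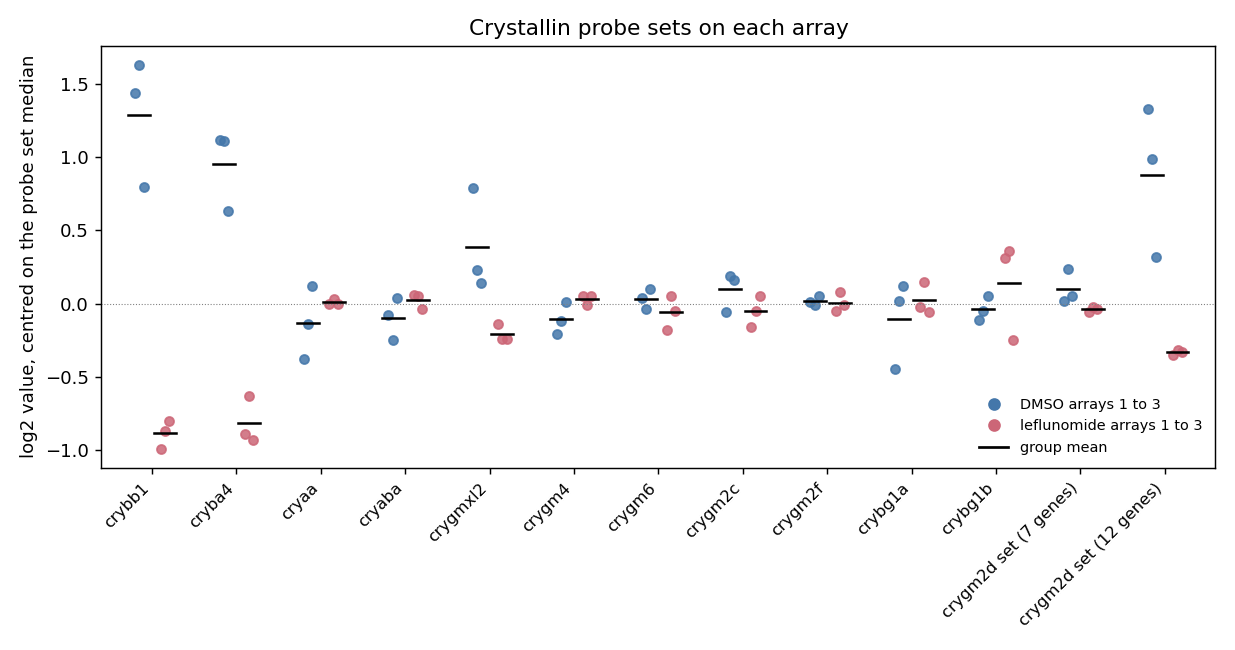
Log2 value, centred on the median of each probe set, for 11 crystallin probe sets and 2 probe sets that name several M-type gamma genes; points are single arrays of the DMSO and leflunomide groups and bars are group means. The DMSO and leflunomide points of crybb1, cryba4, crygmxl2 and the set naming 12 genes stand apart, with a gap of 1.60 for crybb1 and 0.28 for crygmxl2.

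The 2 structural beta crystallins with a probe set of their own, crybb1 and cryba4, showed the largest differences among the members. For crybb1, which encodes beta B1 crystallin, the centred log2 values were 1.44, 1.63 and 0.80 on DMSO arrays 1 to 3 and -0.99, -0.87 and -0.80 on leflunomide arrays 1 to 3. All leflunomide values lay below all DMSO values, and the lowest DMSO value was 1.60 above the highest leflunomide value. The log2 change was -2.17 (SE 0.21, limma adjusted p = 0.0011, n = 3 and 3), which leaves 22.2% of the DMSO level. A change as low or lower was seen in 0.545% of tested probe sets.

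For cryba4, which encodes beta A4 crystallin, the centred log2 values were 1.12, 1.11 and 0.63 on the DMSO arrays and -0.89, -0.63 and -0.93 on the leflunomide arrays. The groups did not overlap and were separated by 1.26. The log2 change was -1.77 (SE 0.16, limma adjusted p = 0.000978, n = 3 and 3), which leaves 29.4% of the DMSO level, and 0.971% of tested probe sets changed by as much or more in that direction. Groups without overlap and with leflunomide lower made up 18.7% of all tested probe sets. Both beta crystallins were called in all 15 alternative fits that tested them, with log2 changes of -2.42 to -1.97 for crybb1 and -1.93 to -1.65 for cryba4. Fits that changed only the filter, variance model, replicate block or unit of the fit left these log2 changes as in the main fit. In embryos measured whole, fewer lens cells and less RNA per cell cannot be told apart.

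In RefSeq's gene table for GRCz12tu, crybb1 and cryba4 are direct neighbours. Their spread had a shared feature: DMSO array 3 was the lowest DMSO array for both. It was also the lowest DMSO array of 42.1% of all probe sets called lower and of 35.2% of all tested probe sets. Within arrays, the log2 value of crybb1 minus that of cryba4 was 0.34 ± 0.18 (SD, n = 3) in DMSO and -0.07 ± 0.18 (SD, n = 3) in leflunomide. The change of crybb1 was thus lower than that of cryba4 by 0.41, with a two-sided exact permutation p of 0.10, the smallest that 3 arrays against 3 can give.

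The leflunomide arrays held closely together for both beta crystallins. Measured from the DMSO mean, crybb1 changed by -2.28, -2.16 and -2.09 on leflunomide arrays 1 to 3, and cryba4 by -1.84, -1.58 and -1.88. The leflunomide values of crybb1 spanned 0.19 and its DMSO values 0.83, so most of the spread behind its error lay among the controls.

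**Figure D2:**
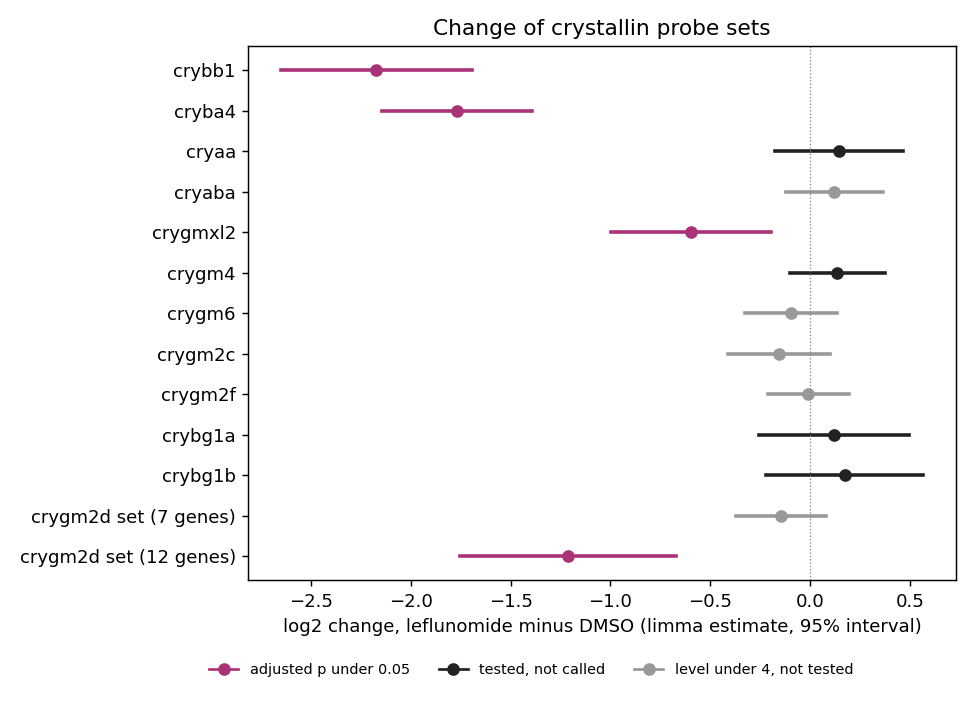
Log2 change, leflunomide minus DMSO, with the 95% interval of the limma fit for each crystallin probe set; grey marks probe sets below a level of 4, whose interval comes from the fit without the level filter. The intervals of crybb1 (-2.65 to -1.69) and cryba4 (-2.14 to -1.39) lie apart from that of cryaa (-0.17 to 0.47).

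The alpha crystallins did not pass the test or lay below the level for it. For cryaa, which encodes alpha A crystallin, a lens chaperone, the centred log2 values were -0.38, -0.14 and 0.12 on the DMSO arrays and 0.00, 0.03 and -0.00 on the leflunomide arrays. The leflunomide values lay inside the DMSO range. The log2 change was 0.15 (SE 0.14, limma adjusted p = 0.504, n = 3 and 3). Its 95% interval of -0.17 to 0.47 does not reach the falls of the beta crystallins. The level of cryaa is known only as 4 to 8, and whether its signal lay above background was not tested.

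The difference of changes between crybb1 and cryaa was -2.32, and that between cryba4 and cryaa was -1.91, each with an exact two-sided permutation p of 0.10, the smallest possible. Adjusted over the 3 pairs compared, the p-values stayed at 0.10, and this exact test cannot go below that value with 3 arrays against 3. DMSO array 3, the lowest control for both beta crystallins, was the highest control for cryaa.

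The other alpha gene, cryaba, one of a duplicated pair in zebrafish that corresponds to the mammalian alpha B crystallin gene, was at the low level of 2 to 4, below the filter. Its centred log2 values were -0.08, -0.25 and 0.04 in DMSO and 0.06, 0.05 and -0.04 in leflunomide, with overlapping groups and a difference of 0.12. Of 11 symbols listed for other small heat shock proteins, 2 were tested, and both were called, in opposite directions. Among all tested probe sets, 21.0% were called. The log2 change of hspb1 was 0.90 (SE 0.22, limma adjusted p = 0.0259). It was no longer called after leaving out any single DMSO array, or leflunomide array 2 or 3. hspb8 fell by 0.46 (SE 0.12, limma adjusted p = 0.037). It was no longer called after leaving out array 1 or 2 of either group, or with the replicate block.

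Among the M-type gamma genes, crygmxl2 had centred log2 values of 0.79, 0.23 and 0.14 on the DMSO arrays and -0.14, -0.24 and -0.24 on the leflunomide arrays. The groups did not overlap, but DMSO array 1 stood well above the other controls. The log2 change was -0.60 (SE 0.17, limma adjusted p = 0.047, n = 3 and 3). Without DMSO array 1 it was -0.40 (limma adjusted p = 0.0856), and the call was also lost without any other single array and without the filter on level (adjusted p = 0.0512).

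For crygm4 the centred log2 values were -0.21, -0.12 and 0.01 in DMSO and 0.05, -0.01 and 0.05 in leflunomide. The groups overlapped, and the log2 change was 0.14 (SE 0.10, limma adjusted p = 0.389). A second probe set that lists crygm4 beside a gene of another family was not used.

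The remaining single-gene M-type members had a median level of 2 to 4, the lowest band found. Their log2 differences were -0.10 for crygm6, -0.15 for crygm2c and -0.01 for crygm2f, and the groups overlapped for all 3. They were tested only in the fit without the level filter, where their limma adjusted p-values were 0.590, 0.405 and 0.969, none of them called. In that fit 2 members were called in place of 3, crybb1 and cryba4.

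A pair of further probe sets listed several genes each and cannot be assigned to 1 gene. All the listed genes were M-type gamma (crygm) genes by current symbol or synonym. The set naming 12 genes had centred log2 values of 1.33, 0.99 and 0.32 on the DMSO arrays and -0.35, -0.32 and -0.33 on the leflunomide arrays. All leflunomide values lay below the DMSO values, and they agreed to an SD of 0.016, against 0.51 in DMSO. The level of this set is known only as 4 to 8, and whether its leflunomide signal lay above background was not tested. The log2 change was -1.21 (SE 0.23, 2.32-fold, limma adjusted p = 0.0119, n = 3 and 3).

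That call was kept without each single array, with log2 changes of -1.49 to -0.99, and was lost with the trend and robust options of the variance model together (adjusted p = 0.0637). DMSO array 3 was the lowest control here too. The set naming 7 genes lay at a level of 2 to 4, with values of 0.02, 0.24 and 0.05 in DMSO and -0.06, -0.02 and -0.04 in leflunomide. Its groups did not overlap, although the gap was 0.044 and the difference -0.14. The RefSeq table lists 35 M-type gamma (crygm) symbols. Whether a probe set of this family binds transcripts of several of them was not tested, since probe sequences were not analysed.

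The rule also took in crybg1a and crybg1b, genes for beta-gamma crystallin domain proteins that are not lens crystallins. For crybg1a the centred log2 values were -0.45, 0.02 and 0.12 in DMSO and -0.02, 0.15 and -0.06 in leflunomide, with overlap and a log2 change of 0.12 (SE 0.16, limma adjusted p = 0.647). Without DMSO array 1 the sign turned, to -0.05. For crybg1b the values were -0.11, -0.05 and 0.05 in DMSO and 0.31, 0.36 and -0.25 in leflunomide, and the log2 change was 0.17 (SE 0.17, limma adjusted p = 0.521). Leflunomide array 3 lay below all controls for crybg1b while the other leflunomide arrays lay above them. Its log2 change was 0.37 without leflunomide array 3 (limma adjusted p = 0.0553), 0.06 without array 2 (adjusted p = 0.854) and 0.09 without array 1 (adjusted p = 0.778).

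**Figure D3:**
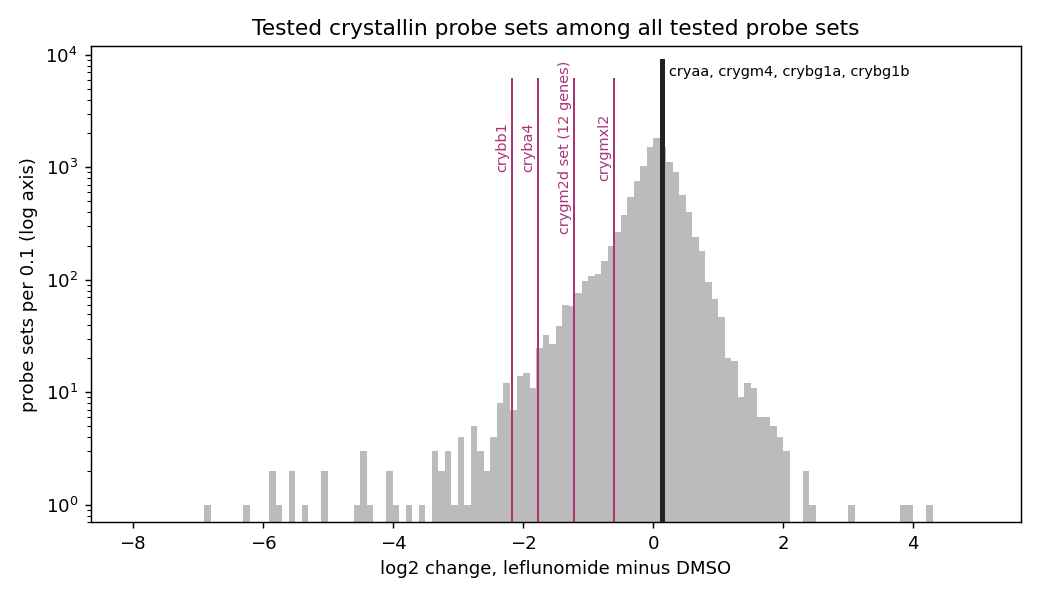
Number of probe sets, on a log axis, by log2 change of leflunomide minus DMSO for all 12669 tested probe sets, with lines at the tested crystallin probe sets. crybb1 and cryba4 lie in the lower tail at -2.17 and -1.77, and the 4 members that were not called lie together at 0.12 to 0.17.

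Set against all tested probe sets, the beta crystallins were among the larger falls. Of the tested probe sets, 506 (3.99%) were called lower by at least 2-fold, cryba4 and crybb1 among them, and 89 (0.703%) by at least 4-fold, crybb1 among them. Among genes with a regular symbol, the closest profiles over the 6 arrays, by root mean square distance of the log2 changes, belonged to genes of other tissues and functions. This distance includes the size of the fall, so probe sets with falls of like size lie close. For crybb1 these were slc25a4, a mitochondrial ADP/ATP carrier gene, at a distance of 0.161, csf1b, which encodes a ligand of the Csf1 receptor, at 0.193, and pvalb3, a parvalbumin gene, at 0.196. For cryba4 they were neurod6b, a neuronal transcription factor gene, at 0.111, eif5a, a translation factor gene, at 0.185, and cyp26b1, which encodes an enzyme that degrades retinoic acid, at 0.214. crybb1 and cryba4 lay 0.323 apart, which put cryba4 in place 14 among the probe sets closest to crybb1 and crybb1 in place 43 among those closest to cryba4. These places count all tested probe sets, with or without a gene symbol.

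None of the tested genes listed for lens fibres and their membranes passed the test. Their values come from whole embryos and do not report on the lens alone. Of 24 listed symbols of lens fibres and their membranes, 5 had a probe set of their own, and all 5 were tested. In limma 0 of the 5 were called, where 21.0% of all tested probe sets were called. So few genes cannot be told apart from that share. Of the 5, 1 had an unadjusted limma p under 0.05, and the median log2 change was 0.09. gja8b, a connexin gene of lens fibres, had values of -0.11, -0.23 and 0.10 in DMSO and 0.00, 0.01 and -0.00 in leflunomide. Its groups overlapped, and its log2 change was 0.08 (SE 0.11, limma adjusted p = 0.668). gja3, another connexin gene of the lens, had a log2 change of 0.09 (SE 0.10, limma adjusted p = 0.582).

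bfsp2, which encodes a beaded filament protein of lens fibres, had values of -0.29, -0.20 and -0.06 in DMSO and 0.06, 0.15 and 0.21 in leflunomide. Its groups did not overlap, with leflunomide higher, but the log2 change of 0.33 did not pass (limma adjusted p = 0.0634). Groups without overlap in either direction made up 41.2% of tested probe sets. tdrd7a, a gene whose loss causes cataract in mammals, had a log2 change of 0.38 (limma adjusted p = 0.253), and cdh2, the N-cadherin gene, 0.02 (limma adjusted p = 0.895) at one probe set and -0.46 (adjusted p = 0.231) at the other. The crystallin-named genes outside the rule, crygs2 and cryl1, had log2 changes of 0.05 and 0.29 and were not called (limma adjusted p = 0.805 and 0.089).

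**Figure D4:**
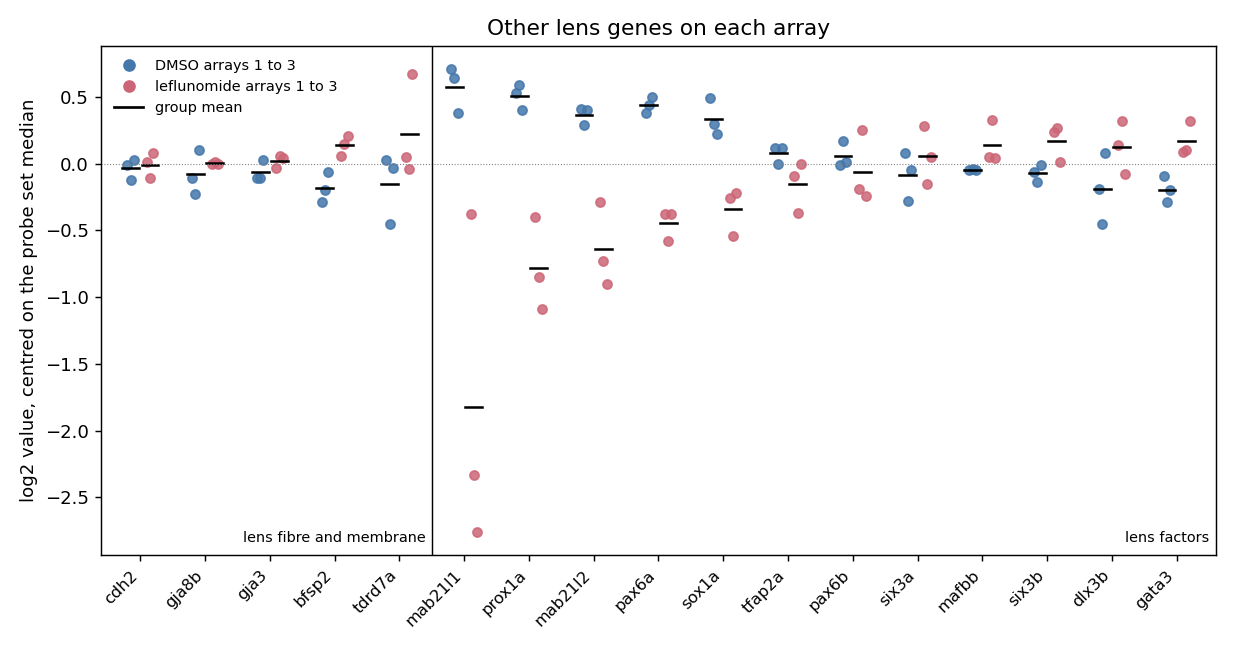
Log2 value, centred on the median of each probe set, for 5 tested lens fibre and membrane genes and 12 tested lens factor genes; points are single arrays and bars are group means. The lens fibre and membrane genes lie near 0 on most arrays of both groups, while prox1a, pax6a, sox1a, mab21l1 and mab21l2 are lower on the leflunomide arrays.

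Transcription factors and related genes with known roles in lens formation fell in part. Of 22 listed, 12 were tested, 5 fell, 0 rose, and the median log2 change was -0.17, beside 11.1% lower and 9.95% higher among all tested probe sets. The gene lists were chosen with earlier results of these data known, so these shares give no independent comparison. All the listed factors are also used in the nervous system or other tissues of the embryo, so whole-embryo values do not report on the lens alone. prox1a, whose mouse counterpart is needed for lens fibre elongation, had values of 0.53, 0.59 and 0.40 in DMSO and -0.40, -0.85 and -1.09 in leflunomide. It fell by 1.28 (SE 0.18, limma adjusted p = 0.00359). Its values varied more among the leflunomide arrays than among the controls, the reverse of crybb1.

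pax6a, a master gene of eye development, fell by 0.88 (SE 0.10, limma adjusted p = 0.0021), whereas its duplicate pax6b had a log2 change of -0.12 (limma adjusted p = 0.636). sox1a, whose mouse counterpart activates gamma crystallin genes, fell by 0.68 (SE 0.13, limma adjusted p = 0.0117) at one probe set, with 0.02 and -0.47 at the others, neither of them called. mab21l2 fell by 1.01 (SE 0.16, limma adjusted p = 0.00632). mab21l1, needed for the mouse lens, fell 5.27-fold (log2 SE 0.54, limma adjusted p = 0.0208). Its leflunomide values were -0.38, -2.33 and -2.76. It was no longer called after leaving out any single DMSO array or leflunomide array 2, or with the trend and robust options together.

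The listed factors that did not pass were tfap2a (-0.23), pax6b (-0.12), six3a (0.15), mafbb (0.19), six3b (0.24), dlx3b (0.31) and gata3 (0.36), as log2 changes. Of the 12 tested factors, 5 thus had a change above 0. The groups of gata3, six3b and mafbb did not overlap, with leflunomide higher (limma adjusted p = 0.0585, 0.167 and 0.276). Their nearest DMSO and leflunomide values were -0.09 and 0.09, -0.01 and 0.01, and -0.04 and 0.04. Of all tested probe sets, 41.2% had groups without overlap in either direction, and 18.7% with leflunomide lower. Markers of neighbouring structures were read against the same shares of 11.1% lower and 9.95% higher, with the same limit on the choice of lists. The values of these markers come from whole embryos and do not report on these structures alone. Of 12 tested retina and eye field genes, 3 fell, 0 rose and 9 were not called, with a median log2 change of -0.32. neurod1 fell by 1.11, aldh1a2 fell by 0.82 and rx2 fell by 0.48, the last no longer called after leaving out any single DMSO array. Another rx2 probe set had overlapping groups and a log2 change of -0.44, and was not called (limma adjusted p = 0.15). Log2 changes above 0, none of them called, were 0.66 for rx3, whose groups did not overlap (limma adjusted p = 0.0522), 0.15 for vax2 and 0.05 for tbx2b. Among uncalled genes with changes below 0, rx1 had -0.73 with groups that did not overlap (limma adjusted p = 0.07). The others were six6a (-0.40), six6b (-0.39), vsx1 (-0.25), vax1 (-0.09) and tbx5a (-0.07). Of 9 tested genes of the pituitary and other placodes, the ectodermal thickenings to which the lens placode belongs, 2 fell and 0 rose, with a median log2 change of 0.09 and 5 changes above 0. eya1 fell by 1.47 (limma adjusted p = 0.000952) and neurog1 fell by 0.95 (limma adjusted p = 0.00155). Among those not called, foxi1 had a log2 change of 0.46 with groups that did not overlap (limma adjusted p = 0.121) and dlx4b one of 0.21 (adjusted p = 0.246). Uncalled changes below 0 were -0.02 for lhx3 and -0.05 for six4a. The part of these structures in the crystallin result was not tested.

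Array controls used to read RNA quality also differed between the groups. Those of acta1 and gapdh read transcripts of the embryo itself, and the part of these genes' own expression in the shift was not tested. The centred 3' minus 5' difference of the acta1 control was -0.87 to -0.48 on the DMSO arrays and 0.48 to 0.64 on the leflunomide arrays, and that of the gapdh control -0.09 to 0.18 and -0.91 to -0.11. The largest spike-in difference, 2.00, was on leflunomide array 3, where crybb1 and cryba4 did not stand out from the other leflunomide arrays. Without that array their log2 changes were -2.22 and -1.71 (limma adjusted p = 0.00404 and 0.00389). Leaving it out does not address the acta1 and gapdh controls, which moved in opposite directions and whose ranges differed between the groups. The part of RNA quality in the crystallin result was not tested.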

How the data were processed

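Trizol-extracted total RNA (per the labels' protocols) was hybridised to 6 arrays, grouped and numbered by their titles. The deposited table holds 1 log2 value per probe set and array, made by the authors with GCRMA according to the submitters' processing notes, with no version given. GCRMA corrects for background by probe sequence and scales arrays by quantiles. The deposited values are centred, with the median of every probe set within 5e-07 of 0, a step no source records; base 2 was assumed, as GCRMA's usual output.

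The single-precision rounding step of values of at least 0.001 gave a coarse median level, read from values above -0.1 so that arrays far below the median did not lower it. This replaced the planned filter on uncentred values. Of 15617 probe sets, 115 array controls were left out and 12669 at a level of at least 4 were tested. Probe sets were named by the platform annotation where it gave 1 gene (10795), and symbols were updated through RefSeq (1 changed). All 11 member identifiers were found there.

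Differences, leflunomide minus DMSO, were tested in R 4.3.3 with limma 3.58.1 (lmFit, then eBayes). Benjamini-Hochberg adjustment ran over all tested probe sets, with a two-sided threshold of 0.05. The procedure was also run on simulated data with independent errors and few changed probe sets. That setting is simpler than these data and gives no error rate for them. Every member was named. List genes were named where called or where they were lens factors. The other tested lens fibre, membrane and crystallin-named genes and the uncalled retina and placode genes were named after their values were seen. Where a listed gene had several probe sets, the one with the highest recovered level stood for it. Ties went to the most specific suffix and then to the first ID, which decided for sox1a, whose probe sets shared a level. Closest profiles were the 3 nearest genes with a regular symbol. The members and lists were chosen with earlier results of these data known. Sequences were not analysed here. The number of arrays limits the precision, and the labels used here name no batch or scan date.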

Additional observations from a re-analysis of the deposited data

How the results depend on the processing

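There were 16 alternatives to the filter, scaling between arrays, variance model, array weights, replicate block, arrays used and unit of the fit, of which 1, the level read from the rounding of all 6 arrays, was chosen after seeing the data. A filter at a level of at least 8 tested crybg1b alone of the members, which leaves 15 for the others. The calls of crybb1 and cryba4 were kept in all 15, and cryaa and crygm4 were called in 0 of 15, with adjusted p from 0.19 to 0.935 for cryaa. crygmxl2 was called in 8 of 15 and lost in 7, with log2 changes of -0.72 to -0.40. The sign of crybg1a turned without DMSO replicate 1 (-0.05), with 0.23 as the highest value without 1 array; it was not called in any fit. Leaving out single arrays gave 2 called crystallin probe sets each time, against 3, and between 1180 and 2868 called probe sets in all, against 2664. The total was 1334 without DMSO replicate 1, 1262 without DMSO replicate 2, 1180 without DMSO replicate 3 and 1502 without leflunomide replicate 2. At a level of at least 8, 1483 of 4364 probe sets were called, and 0 crystallin probe sets, with crybg1b alone tested (limma adjusted p = 0.461, unadjusted p above 0.05). With the replicate block, 2593 probe sets and 3 crystallin probe sets were called. The labels do not say that the numbers pair arrays, so they were not taken as pairs in the main fit. The same-numbered arrays had correlations of their deviations of 0.33, 0.19 and 0.072, and each array correlated best with its own number. The trend in the variance model used centred means, which carry no level. The alternative scalings were also run on centred values, so quantile normalization there aligned deviations from the median and not expression levels. The motif search planned for promoters was not run. Members at a level of 2 to 4 lie near the lowest values that the arrays give, so differences there may go unmeasured. Whether members at a level of 4 to 8 lay above background on the leflunomide arrays was not tested.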
